A study of Homo sapiens with 4 samples.

Results

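Accessible chromatin around CCND1, the gene of cyclin D1, was described in 786-O, a human line of clear cell renal carcinoma without working VHL, the ligase subunit that marks HIF-2α for destruction. The members were all ATAC-seq peaks on chromosome 11 between 69.1 and 69.8 Mb (hg38), a stretch of 700 kb that holds CCND1 and the DNA upstream of it. ATAC-seq marks open DNA by the insertion of sequencing adapters by the Tn5 transposase. Cells had received 5 µM ACSS2i for 24 h, a compound that the labels name after the enzyme ACSS2, or DMSO, its vehicle, for the same time. There were 2 libraries of each kind, 4 in all, and the labels give 1 cell line and no genetic change in either group. The 4 peak lists held 116 rows in the window, 1 for each summit (local maximum): 22 and 23 in ACSS2i replicates 1 and 2 and 33 and 38 in DMSO replicates 1 and 2. Peaks that overlapped between libraries were joined, which gave 28 regions of 53572 in the whole series.

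Cyclin D1 binds and activates the kinases CDK4 and CDK6, which phosphorylate the retinoblastoma protein and so let cells pass from G1 into S phase. In renal carcinoma cells without VHL, hypoxia-inducible factor 2 (HIF-2) is stable under normal oxygen and raises CCND1 transcription, and it is known to bind an enhancer far upstream of the gene. ACSS2 makes acetyl-CoA, the donor for histone acetylation, from acetate. The series concerns ACSS2 and the turnover of HIF-2α in these cells, and the ATAC-seq experiment sets chromatin after ACSS2i against vehicle.

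The lists differed in length. They held 16400 and 22044 peaks in ACSS2i replicates 1 and 2 and 34696 and 50294 peaks in DMSO replicates 1 and 2. No read totals came with the lists. The background coverage of the genome, recovered from fold and −log10 p, was 2.32 and 3.16 fragments in ACSS2i libraries and 2.06 and 1.75 fragments in DMSO libraries. Of 10 markers of renal epithelium, 5 and 8 had a gene-end peak (1000 bp or less from either end) in ACSS2i replicates 1 and 2 and 8 and 8 in DMSO replicates 1 and 2, and PAX2 and CA9 had none anywhere. KRT8 and KRT18 were counted separately among these markers, though they share the same peak in every library. Of 5 immune genes, CD68 had one in every library and the others had none. Of 5 neuronal or muscle genes, SYT1 or SNAP25 gave 0 and 1 in ACSS2i and 2 and 2 in DMSO libraries, and 4 endothelial genes gave none. The SYT1 peak lay past the upper end of its gene span.

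Of the 19 annotated genes that touch the window, 8 have a promoter in the RefSeq table of GRCh38.p14, which gives 250 bases before and 50 bases after the transcript start. CCND1, MYEOV, FGF19 and FGF4 are not among them. LTO1 is a protein-coding gene 11.1 kb past the upper end of CCND1. Its promoter and that of LOC105369366, a long noncoding RNA gene, are shown because they were the ones that overlapped a peak. That of LOC105369366 lies at chr11:69166551-69166850 on the plus strand and that of LTO1 at chr11:69675304-69675603 on the minus strand, and both are written 5′ to 3′. The motifs sought on both strands were the HIF core ACGTG and its variant GCGTG, the AP-1 motif TGANTCA, the ETS core GGAAG, the SP/KLF box GGGCGG, the E-box CACGTG, which contains ACGTG, and the TCF/LEF motif TTTGAT. Capitals mark every match.
LOC105369366: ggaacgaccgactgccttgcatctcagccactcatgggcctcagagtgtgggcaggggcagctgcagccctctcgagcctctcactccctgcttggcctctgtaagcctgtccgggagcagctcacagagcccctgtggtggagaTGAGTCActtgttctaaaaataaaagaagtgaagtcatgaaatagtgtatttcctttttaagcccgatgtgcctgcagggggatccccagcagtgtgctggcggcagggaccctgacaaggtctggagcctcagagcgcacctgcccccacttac
LTO1: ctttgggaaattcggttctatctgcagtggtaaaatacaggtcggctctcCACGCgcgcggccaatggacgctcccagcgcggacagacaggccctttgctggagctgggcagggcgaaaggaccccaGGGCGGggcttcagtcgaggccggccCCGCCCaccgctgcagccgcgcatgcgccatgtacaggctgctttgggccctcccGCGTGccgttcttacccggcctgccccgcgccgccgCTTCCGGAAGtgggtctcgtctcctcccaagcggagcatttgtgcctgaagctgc

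The LOC105369366 promoter holds 1 match to TGANTCA, as do 7.71% of the 35116 promoters of the same length. It holds no match to the other motifs sought. The strongest summit there lay 48 bp from the match in ACSS2i replicate 2 and 50 and 32 bp from it in DMSO replicates 1 and 2. The LTO1 promoter holds 2 matches to the HIF variant GCGTG, 2 to the ETS core and 2 to the SP/KLF box, and none to the rest. Of all promoters, 36.5% hold that HIF variant, 71.9% the ETS core, 45% the SP/KLF box, 21.4% the HIF core, 7.26% the E-box and 9.53% the TCF/LEF motif. The ETS matches of LTO1 lie on opposite strands and abut, and a match here describes letters and not binding. The strongest LTO1 summits lay outside the printed sequence, which ends 50 bases after the transcript start. They were 174 and 526 bp inside the transcript in ACSS2i replicates 1 and 2 and 150 and 63 bp inside in DMSO replicates 1 and 2.

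The regions of the window spread along the DNA upstream of CCND1 as well as the gene. CCND1 (11:69641156 to 69654474) is read toward higher coordinates, so its lower end is the transcript start. Of the 28 regions, 21 (75%) lay more than 10 kb below that end, a stretch that makes up 75.9% of the window. The gene with 10 kb on each side held 4 regions (14.3%) in 4.76% of the window, and 3 regions (10.7%) lay further past its upper end, in 19.4%. Gene spans contained 8 regions and were partly overlapped by 4, and 16 lay between annotated genes. The window was a dense one: 21 regions had a peak in both DMSO libraries, more than in 92.1% of the 3552 stretches of equal length that held any such region, where the median was 7. The longest stretch without a region, 113 kb, lay between the LOC105369366 promoter and a region near MYEOV.

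**Figure D1:**
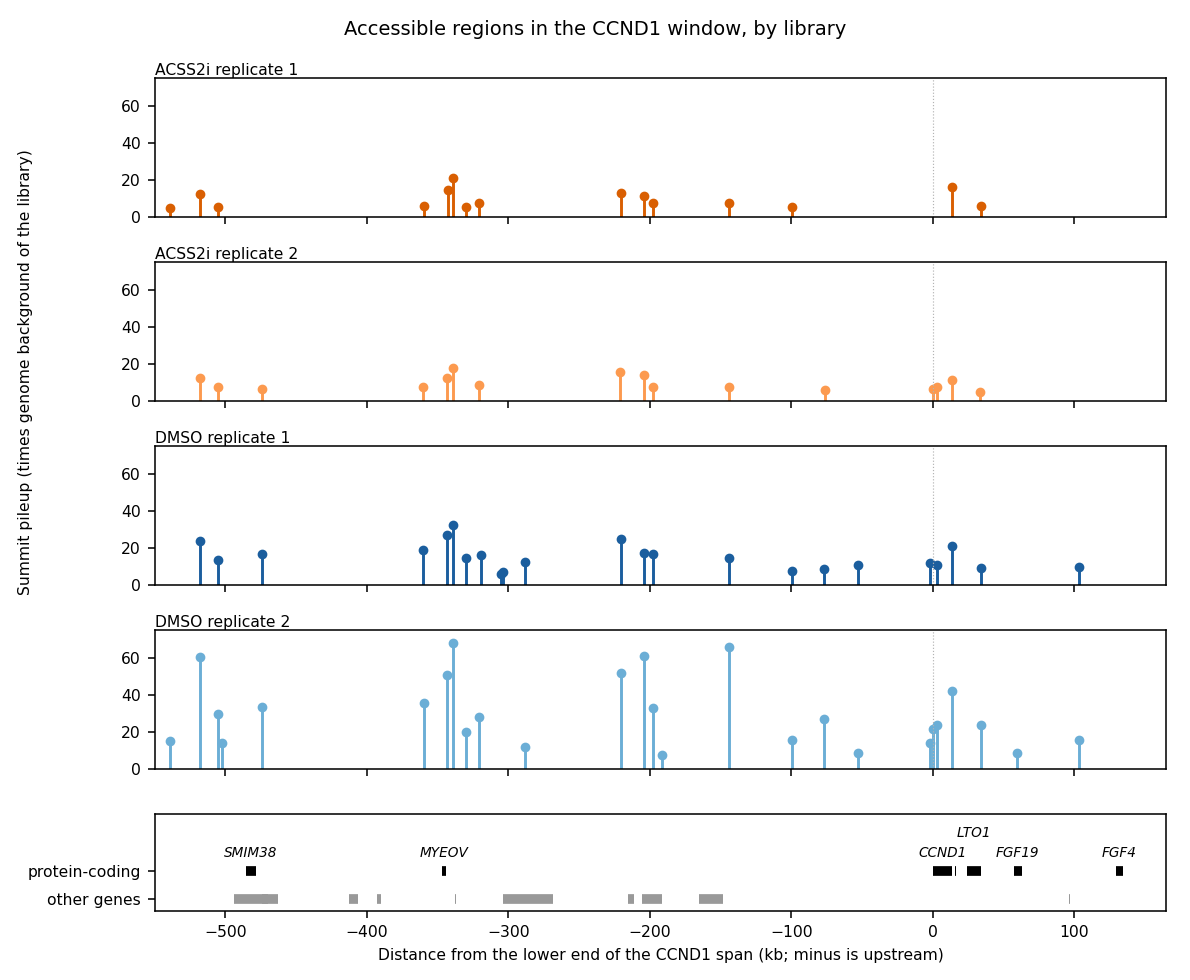
Summit height of each region of the CCND1 window, as fragments at the strongest summit divided by the genome background of the library (vertical axis), against distance from the lower end of CCND1 in kb (horizontal axis), with 1 panel for each library and the annotated genes at the bottom. In each library the tallest summit, at 21.2 and 17.7 times background in ACSS2i and 32.6 and 68.1 times in DMSO, stands 339 kb upstream of CCND1.

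Fewer peaks of the window were listed in ACSS2i than in DMSO libraries. There were 15 and 16 peaks in ACSS2i replicates 1 and 2, against 24 and 26 in DMSO replicates 1 and 2, or 15.5 ± 0.707 against 25 ± 1.41 (SD, n = 2 each). The groups did not overlap, and the two-sided exact permutation p was 0.333, the smallest that 2 against 2 libraries allow. These peaks covered 9.89 and 9.96 kb in ACSS2i libraries, against 16.7 and 20.8 kb in DMSO libraries (exact permutation p = 0.333). With each list cut to its 16400 strongest peaks, the covered length was 9.89 and 9.76 kb in ACSS2i replicates 1 and 2. In DMSO replicates 1 and 2 it was then 12.9 and 9.585 kb, so the groups overlapped. The labels do not state whether replicates were grown separately, so each p speaks of the spread among these libraries alone, and that spread may be technical.

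As a share of all peaks of its list, the window stood higher in ACSS2i. It held 0.0915% (95% exact binomial interval 0.0512 to 0.151%) and 0.0726% (0.0415 to 0.118%) of the peaks in ACSS2i replicates 1 and 2, against 0.0692% (0.0443 to 0.103%) and 0.0517% (0.0338 to 0.0757%) in DMSO replicates 1 and 2. The groups did not overlap (exact permutation p = 0.333), though the counting intervals of all 4 did. When each list was cut to its 16400 strongest peaks, the window held 15 and 15 peaks in ACSS2i libraries and 16 and 11 in DMSO libraries, so the groups then overlapped.

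Both DMSO libraries listed 21 of the regions. Of these, 12 were listed in all 4 libraries, 5 in a single ACSS2i library and 4 in neither ACSS2i library. Over all 31506 such regions of the series the same shares were 42.2%, 24.3% and 33.5%. The window thus had 57.1% in all 4 and 19.0% without an ACSS2i peak. No region of the window was listed in both ACSS2i libraries and neither DMSO library, a pattern found in 0.0224% of all regions. Every region with an ACSS2i peak had one in at least 1 DMSO library. Regions in a single ACSS2i library and no DMSO library were rare in the series as well, at 2.59% of all regions. The list length, which differs between the groups, moved with these counts: at equal length 9 window regions were in both DMSO lists, of which 8 were in all 4 and 0 lacked an ACSS2i peak, where all regions had 77.0% and 6.41%. Without ACSS2i replicate 2, 7 of 21 regions lacked an ACSS2i peak (52.2% of all regions), and without DMSO replicate 1, 7 of 26 did (55.9%). It was 6 of 21 without ACSS2i replicate 1 (39.0%) and 6 of 23 without DMSO replicate 2 (39.0%). The window thus stayed below the share of all regions in each of these settings. These shares were not matched for peak strength. The median −log10 q percentile of window peaks was 66.5 and 61.2 in DMSO replicates 1 and 2. It was 43.9 and 46.3 in ACSS2i replicates 1 and 2. Whether peak strength accounts for the lower share was not tested.

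At CCND1 itself the strongest peak lay at the end of the gene and not at its start. This region (11:69654274 to 69655344), with its median summit 407 bp past the upper end, was present in all 4 libraries. Its fold, the enrichment of the summit over local background that the authors' peak caller gave, was 7.55 and 4.81 in ACSS2i replicates 1 and 2 and 6.60 and 8.29 in DMSO replicates 1 and 2. Its −log10 q ranked at percentile 94.99 and 74.1 of the ACSS2i lists and at 80.7 and 81.0 of the DMSO lists, and its strongest summits lay within 110 bp of each other. Percentiles belong to lists of different length, so they place a peak within its list and do not measure a change.

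The transcript start of CCND1 had a weak peak in 1 library of each group. The region (11:69640981 to 69641424) was listed in ACSS2i replicate 2 with a fold of 3.02, at percentile 16.6 of its list, and in DMSO replicate 2 with a fold of 3.60, at percentile 32.2. It was absent from ACSS2i replicate 1 and from DMSO replicate 1, so its presence split both groups. In these 2 libraries the start carried 6.32 (ACSS2i) and 21.7 (DMSO) times the genome background in fragments at the summit. The local background that the fold divides by was itself 1.88 and 5.63 times the genome background there.

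Other weak regions lay on both sides of the start. One inside the gene (11:69643042 to 69644731), 3.27 kb past the start, had a fold of 3.36 in ACSS2i replicate 2, none in ACSS2i replicate 1, and 3.398 and 4.48 in DMSO replicates 1 and 2. The other (11:69638545 to 69639361), 2.00 kb before the start, was in neither ACSS2i list and had folds of 4.31 and 2.99 in DMSO replicates 1 and 2, at percentiles 38.2 and 14.2. Thus ACSS2i replicate 1, the shortest list, held the end of CCND1 alone, and DMSO replicate 2, the longest, held all 4 regions.

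**Figure D2:**
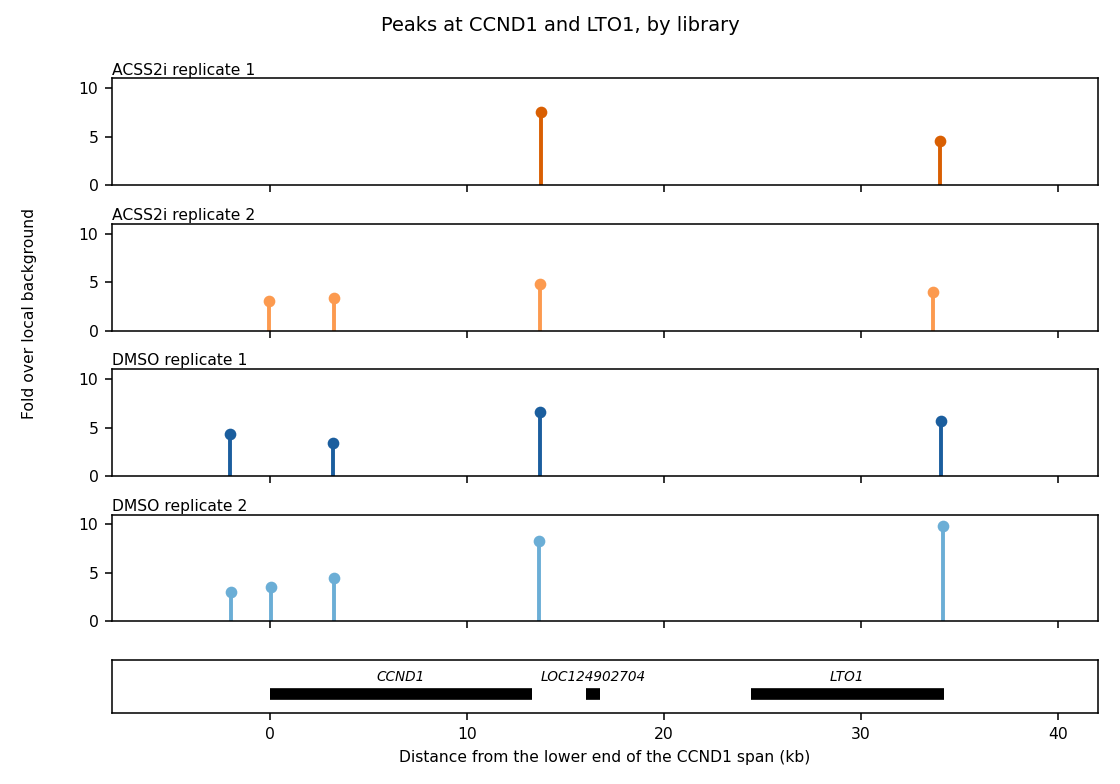
Fold over local background of the strongest summit of each region (vertical axis) around CCND1 and LTO1, against distance from the lower end of CCND1 in kb (horizontal axis), with 1 panel for each library. The region at the upper end of CCND1, with folds of 7.55 and 4.81 in ACSS2i and 6.60 and 8.29 in DMSO, and that at LTO1 are in all 4 panels, while the start of CCND1 has a point in replicate 2 of each group alone.

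The upstream stretch between about 220 and 198 kb from CCND1 held 3 regions that were present in all 4 libraries. The first (11:69419446 to 69421362), centred 220.5 kb upstream and 4.29 kb from the noncoding RNA gene LINC02953, is 1917 bp long and had 2, 3, 3 and 2 summits in ACSS2i replicates 1 and 2 and DMSO replicates 1 and 2. Its fold was 7.15 and 7.30 in ACSS2i libraries and 7.66 and 8.52 in DMSO libraries. It ranked at percentile 89.7 and 96.0 of the ACSS2i lists and at 89.8 and 87.4 of the DMSO lists, so it ranked high in every list.

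The second region (11:69436913 to 69437589), 203.9 kb upstream within the span of LINC02952, had the most tightly placed summit of the 12 shared regions. Its strongest summits lay within 21 bp of each other in the 4 libraries. The fold was 6.19 and 5.84 in ACSS2i replicates 1 and 2 and 7.09 and 12.7 in DMSO replicates 1 and 2, at percentiles 80.6 and 89.8 of the ACSS2i lists and 77.0 and 96.3 of the DMSO lists. DMSO replicate 1 lay nearer to the ACSS2i libraries than to DMSO replicate 2.

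The third (11:69442886 to 69444260), 197.7 kb upstream and also within LINC02952, ranked below the first and second in every list. By fold it was the weakest in the ACSS2i libraries only, and in both DMSO libraries its fold lay between those of the first and second. It had folds of 4.42 and 3.81 in ACSS2i libraries, both at percentile 40 to the nearest whole number, and of 7.23 and 9.68 in DMSO libraries, at 76.8 and 77.6. A weak region nearby (11:69449647 to 69449873) was listed by DMSO replicate 2 only (fold 3.56). The genome sequence of these regions was not used here, so no motif was sought in them and none is named as the HIF-2 enhancer.

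The region 143.8 kb upstream (11:69496992 to 69497664), 3.78 kb beyond LINC01488, differed between the DMSO libraries. Its fold was 5.06 and 3.30 in ACSS2i replicates 1 and 2 and 7.19 and 14.3 in DMSO replicates 1 and 2. The last is the highest fold of the window in any library. The DMSO libraries differed from each other in summit height by more than DMSO replicate 1 did from either ACSS2i library: the summits stood at 7.34 and 7.27 times the genome background in ACSS2i and at 14.6 and 65.8 times in DMSO. All 4 summits lay within 49 bp.

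The tallest summit of the window in every library lay in a region (11:69301365 to 69302280) that starts 4.08 kb past MYEOV, a gene named for its overexpression in myeloma. The median summit of this region lay 339.2 kb upstream of CCND1. Its height was 21.2 and 17.7 times the genome background in ACSS2i replicates 1 and 2, against 32.6 and 68.1 times in DMSO replicates 1 and 2. By fold it was not first: 7.18 and 5.14 in ACSS2i libraries and 5.20 and 5.52 in DMSO libraries, which ranked 2 of 15, 4 of 16, 17 of 23 and 17 of 26 regions in the same order of libraries. The fold divides by a local background that was 2.57 and 3.19 times the genome background in ACSS2i libraries and 5.87 and 11.9 times in DMSO libraries. These scales therefore order this region differently, and more so in DMSO.

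A wide region at the upper end of MYEOV (11:69297193 to 69299111) had the same property. Its fold was 4.59 and 3.403 in ACSS2i libraries and 3.70 and 3.54 in DMSO libraries, with a local background of 2.86 and 3.49 times the genome background in ACSS2i and 6.995 and 13.98 times in DMSO. It had 4 summits in each library but DMSO replicate 1, which had 2 in separate peaks. The fold groups overlapped.

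Around MYEOV, 2 more regions were in all 4 libraries. That 360.1 kb upstream of CCND1 (11:69280566 to 69281557) had folds of 4.32 and 3.94 in ACSS2i libraries and 9.13 and 9.27 in DMSO libraries, and the first of these DMSO values is the highest of its library in the window. That at 320.5 kb (11:69320450 to 69322290) had folds of 4.60 and 4.64 in ACSS2i and 6.17 and 7.14 in DMSO, with 2 and 1 summits in ACSS2i and 4 and 5 in DMSO. Between them, a region at 329.8 kb (11:69310788 to 69311529) was in ACSS2i replicate 1 with a fold of 3.67, was absent from ACSS2i replicate 2, and had 7.54 and 7.12 in DMSO libraries.

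At the far upstream edge of the window, the region at 518.2 kb (11:69122380 to 69123403) was among the strongest of every list. Its fold was 7.12 and 6.02 in ACSS2i replicates 1 and 2 and 9.03 and 11.97 in DMSO replicates 1 and 2, at percentiles 88.6 and 87.6 of the ACSS2i lists and 92.2 and 95.6 of the DMSO lists. Its neighbour at 505.5 kb (11:69135395 to 69136190) had 3.85 and 4.12 in ACSS2i and 8.03 and 7.40 in DMSO. The region that overlaps the LOC105369366 promoter shown above (11:69166599 to 69167181) had a fold of 4.32 in ACSS2i replicate 2, no peak in ACSS2i replicate 1, and 8.62 and 12.2 in DMSO libraries. One at 539.5 kb (11:69101330 to 69101888) was in ACSS2i replicate 1 (fold 3.47) and DMSO replicate 2 (5.63) alone.

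Between 100 kb upstream and the start of CCND1 the regions were isolated and called unevenly. At 99.2 kb (11:69541704 to 69542189) the fold was 3.78 in ACSS2i replicate 1, with no peak in ACSS2i replicate 2, and 4.44 and 5.39 in DMSO libraries. At 76.5 kb (11:69564179 to 69564764) the ACSS2i libraries changed places, with 4.22 in replicate 2 and no peak in replicate 1, and DMSO libraries had 5.31 and 10.7. At 52.9 kb (11:69587857 to 69588596) neither ACSS2i library had a peak, and DMSO libraries had 6.24 and 5.13, at percentiles 53.8 and 22.9.

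The remaining regions with DMSO peaks and no ACSS2i peak were of middle or low rank in their lists. That at 288.2 kb upstream (11:69352312 to 69353164) had folds of 6.68 and 5.70 in DMSO replicates 1 and 2, at percentiles 63.1 and 33.8. That 103.5 kb past the start of CCND1 (11:69744464 to 69744934), between FGF19 and FGF4, had 6.06 and 6.95, at percentiles 49.1 and 46.3. With the regions 52.9 kb and 2.00 kb before the start, these were the 4 that lacked an ACSS2i peak in the full lists.

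Peaks of a single DMSO library were all weak. DMSO replicate 2 alone had a region at 502.6 kb upstream (fold 4.0), the one at 191.4 kb named above, and one inside FGF19 (11:69700693 to 69700948, fold 3.72), the gene of a hormone of bile acid control. DMSO replicate 1 alone had regions at 305.6 kb (fold 3.805) and 303.6 kb (fold 4.34) upstream. All 5 lay at or below percentile 25.4 of their lists. DMSO replicate 2 alone listed 3 of the 28 regions here and 32.0% of all regions of the series.

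Past CCND1, LTO1, which acts in the maturation of iron-sulfur proteins and ribosomes, had a peak at its start in all 4 libraries (11:69674571 to 69675512). Its fold was 4.52 and 3.99 in ACSS2i libraries and 5.66 and 9.85 in DMSO libraries. The strongest summit lay 174 and 526 bp inside the transcript from its start in ACSS2i replicates 1 and 2 and 150 and 63 bp inside in DMSO replicates 1 and 2. FGF4, the gene of a growth factor of the early embryo, SMIM38 and LOC124902704 had no peak within 1000 bp of an end in any library, nor did FGF19, whose peak lay inside the gene.

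**Figure D3:**
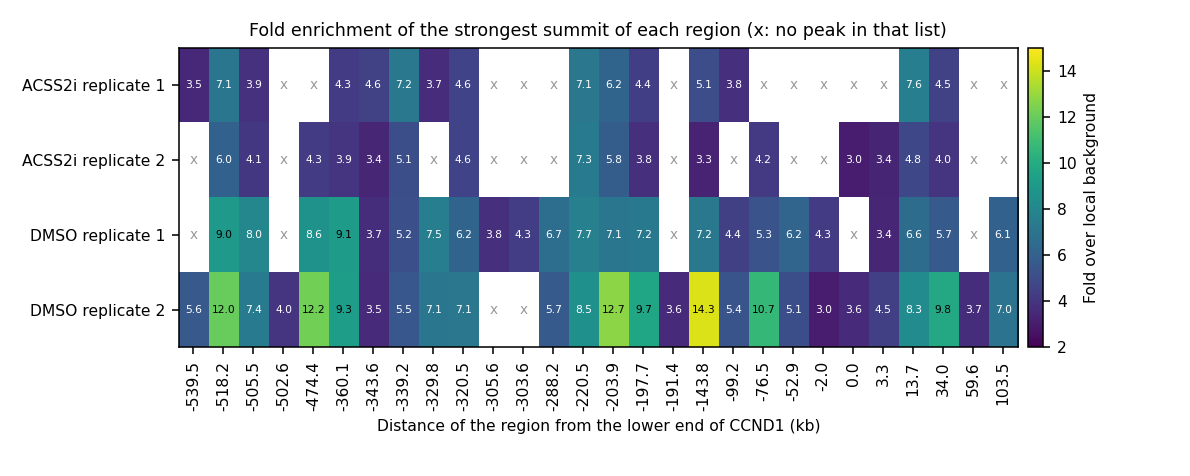
Fold over local background of the strongest summit (colour and printed value) of the 28 regions of the window (columns, by distance from the lower end of CCND1 in kb) in each library (rows), with x where the list has no peak. Both ACSS2i rows have values in 12 of the 21 columns that both DMSO rows fill, and the highest value, 14.3 in DMSO replicate 2, stands at 143.8 kb upstream.

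Summit heights were also set against the rest of each library. In all 12 regions shared by the 4 libraries, the summit was lower in both ACSS2i than in both DMSO libraries when expressed over the genome background, as it was in 99.3% of the 13304 shared regions of the series whose summits could be solved in all libraries. The median over those regions was 8.64 and 9.17 times the background in ACSS2i libraries and 19.0 and 44.1 times in DMSO libraries. Divided by that library median, the 12 window regions had a median height of 1.05 and 1.08 in ACSS2i replicates 1 and 2 and of 0.961 and 1.05 in DMSO replicates 1 and 2. On the log2 scale this is 0.0912 ± 0.0271 in ACSS2i and 0.00903 ± 0.0944 in DMSO (SD, n = 2 each). The difference of 0.08 was within the spread between the DMSO libraries (two-sided exact permutation p = 0.667). With the same 12 regions it was 0.10 without ACSS2i replicate 1, 0.06 without ACSS2i replicate 2, 0.02 without DMSO replicate 1 and 0.15 without DMSO replicate 2. With the regions chosen anew from the 3 libraries left, it was -0.05 over 15 regions without ACSS2i replicate 1 and -0.13 over 14 regions without ACSS2i replicate 2, so its direction changed with the set of regions.

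On this relative scale, 6 of the 12 regions were higher in both ACSS2i than in both DMSO libraries, where 21.4% of all shared regions were, and 1 was lower, where 12.4% were. A rank by −log10 q, and not by summit height, was also taken among the shared regions of each library. By this rank 5 were higher in both ACSS2i libraries, where 18.2% were, and 1 was lower, where 16.5% were. The 5 were not all among the 6: by rank the regions at 518.2 kb and at LTO1 did not count and that at the upper end of MYEOV did. The tall region near MYEOV had log2 relative heights of 1.29 and 0.95 in ACSS2i replicates 1 and 2 and of 0.78 and 0.63 in DMSO replicates 1 and 2. The region 220.5 kb upstream of CCND1 had 0.58 and 0.79 in ACSS2i and 0.39 and 0.24 in DMSO. The upper end of CCND1 had 0.89 and 0.27 in ACSS2i and 0.14 and -0.06 in DMSO.

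In these 3 regions the ACSS2i values stood above both DMSO values, although near MYEOV and at CCND1 ACSS2i replicate 2 lay nearer to DMSO replicate 1 than to ACSS2i replicate 1. The other 3 of the 6 were near ties. The region at 518.2 kb had 0.536 and 0.464 in ACSS2i and 0.329 and 0.461 in DMSO. The region at 320.5 kb had -0.234 and -0.0506 in ACSS2i and -0.241 and -0.652 in DMSO. LTO1 had -0.515 and -0.858 in ACSS2i and -1.04 and -0.874 in DMSO. In each of these the lower ACSS2i value barely passed the higher DMSO value. The one region that was lower, at 360.1 kb, was a near tie as well, with -0.51 and -0.33 in ACSS2i and 0.00 and -0.31 in DMSO. A summit in a shared window region rested on as few as 13 and 16 fragments in ACSS2i libraries and 19 and 42 in DMSO libraries, so single values carry a wide counting error.

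**Figure D4:**
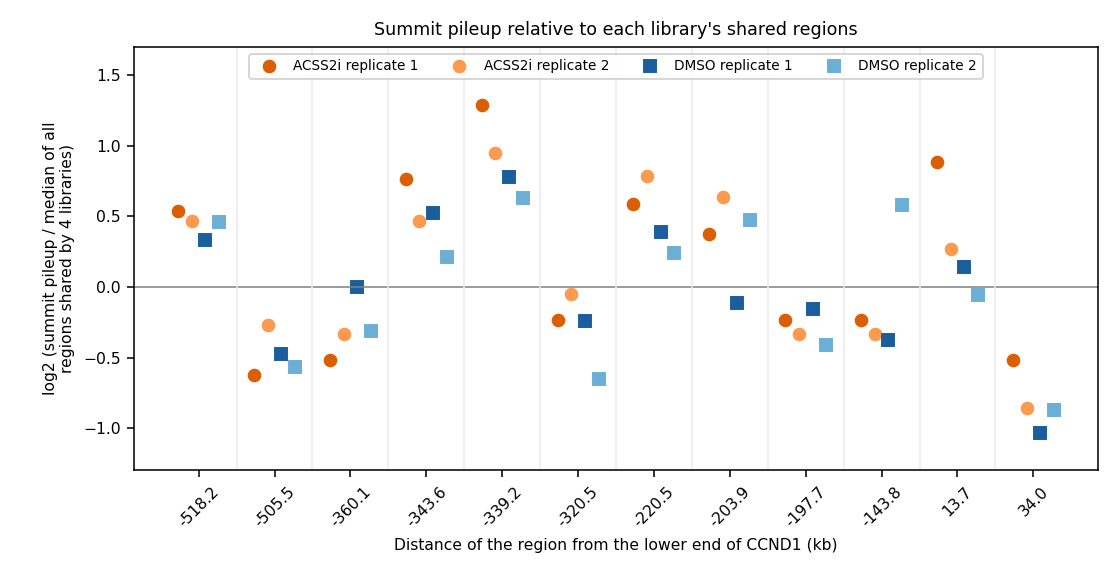
Summit height of the 12 regions shared by all libraries (horizontal axis, distance from the lower end of CCND1 in kb), as log2 of the summit pileup over the library's median for all shared regions (vertical axis), with circles for ACSS2i and squares for DMSO. Both circles lie above both squares in 6 regions, among them that at 339.2 kb upstream (1.29 and 0.95 against 0.78 and 0.63), and below them in 1.

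The order of the 12 regions by summit height was alike in the 4 libraries, and their order by fold was not. Spearman's rho of summit height was 0.79 between ACSS2i libraries, 0.60 between DMSO libraries, and between 0.63 and 0.85 for an ACSS2i with a DMSO library. Spearman's rho of fold was 0.62 between ACSS2i libraries, 0.45 between DMSO libraries, and between -0.28 and 0.17 across the groups. These are descriptions over 12 sites whose heights share the depth of a library. Of the 12 regions, 7 had strongest summits within 110 bp of each other in all libraries.

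Other genes of the passage from G1 to S phase were read by their gene-end peaks. Of 28 genes, 12 and 17 had one in ACSS2i replicates 1 and 2 and 20 and 25 in DMSO replicates 1 and 2. Both DMSO libraries had 20 of the genes, of which 12 were in all 4 libraries, 5 in a single ACSS2i library and 3 in neither ACSS2i library. Over the 10471 protein-coding genes that had one in each DMSO library, 58.0% had one in all 4 and 18.9% had none in ACSS2i, so 3 of 20 is near the background. CCND1 counted among the 12 through the peak at its upper end.

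The 3 genes without an ACSS2i peak were CCND3, the gene of cyclin D3, E2F4, a repressive E2F factor, and FBXW8, part of a ubiquitin ligase. CCND3 had folds of 4.42 and 6.04 in DMSO replicates 1 and 2. E2F4 had 3.77 and 7.11, and FBXW8 had 4.84 and 9.98. No library had a gene-end peak at CCND2, the gene of cyclin D2, or at the CDK inhibitor genes CDKN1A and CDKN1C.

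With gene ends of 1000 bp, the strongest members present in all 4 libraries were CDK2, GSK3B, CCNE2 and CCND1. They were ranked by the lowest percentile over the 4 lists. Membership depended on the distance allowed: with gene ends of 500 bp, CCNE2 was among the 5 of 20 genes that lacked an ACSS2i peak. CDK2, the kinase partner of cyclin E, had folds of 9.12 and 8.90 in ACSS2i libraries and 10.9 and 11.8 in DMSO libraries. In every library this peak lay wholly past the upper end of the gene span (12:55966830 to 55972789). In ACSS2i replicate 1 it started at 55973483, more than 500 bp past that end. The gene table gives no strand, so the peak is not shown to mark the CDK2 start. GSK3B, a kinase that marks cyclin D1 for export and degradation, had 7.32 and 8.93 in ACSS2i and 7.26 and 9.76 in DMSO. CCNE2, the gene of cyclin E2, had 6.27 and 6.18 in ACSS2i and 5.98 and 9.71 in DMSO.

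For CDK2 both ACSS2i folds lay below both DMSO folds, and for GSK3B and CCNE2 the groups overlapped. The share of all genes that separate in this way was not computed. The median fold of all peaks was also lower in ACSS2i, at 4.65 and 4.30 in replicates 1 and 2. In DMSO replicates 1 and 2 it was 5.35 and 6.65. CDK4, the partner of cyclin D1, was present in all 4 with folds of 4.26 and 4.08 in ACSS2i and 6.11 and 7.98 in DMSO, whereas CDK6 was listed by DMSO replicate 2 alone (fold 3.16). Among the targets, RB1 had a fold of 3.36 in ACSS2i replicate 2, none in ACSS2i replicate 1, and 3.61 and 8.41 in DMSO libraries. Without ACSS2i replicate 2, 8 of the 20 genes lacked an ACSS2i peak (38.1% of all genes), and without DMSO replicate 1, 8 of 25 did (28.5%). At equal list length 0 of 13 did (5.29%).

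**Figure D5:**
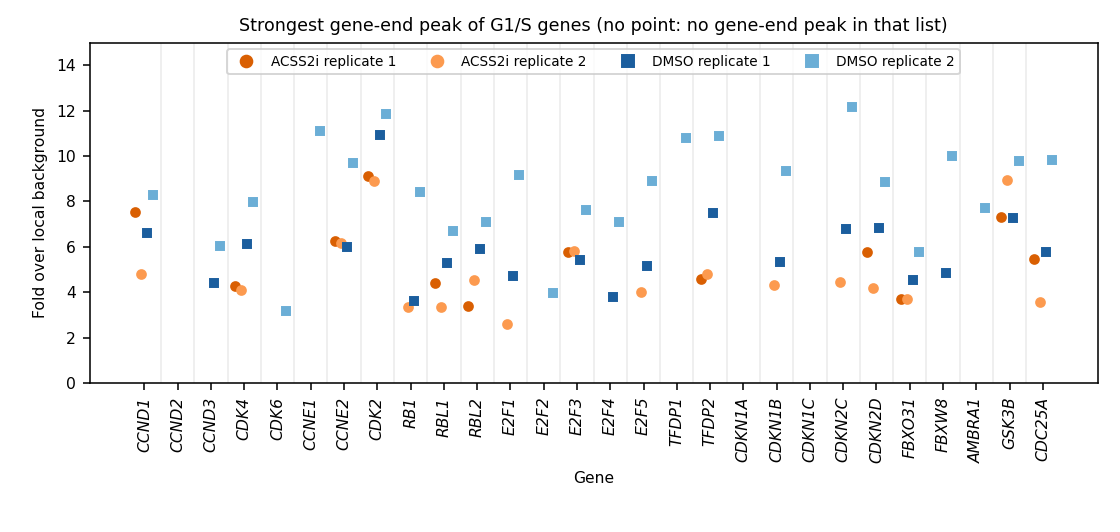
Fold over local background of the strongest gene-end peak (vertical axis) of 28 genes of the G1 to S passage (horizontal axis) in the 4 libraries, with circles for ACSS2i and squares for DMSO, and no point where the list has no gene-end peak. CDK2 has folds of 9.12 and 8.90 in ACSS2i and 10.9 and 11.8 in DMSO, and CCND3, E2F4 and FBXW8 have squares of both DMSO libraries and no circle. The CDK2 peak lies past the upper end of the gene span.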

How the data were processed

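Per the labels' protocols, cells were stored frozen and, after thawing, received DNase I ahead of the Tn5 reaction. Tools named in the submitters' processing notes include MACS2 2.1.2, Bowtie2 and Picard 2.18.26, with hg38 as build. Their options, any Tn5 shift and the filter applied to the lists were not given in these sources. Peaks were deposited for each library separately. The deposited fold is a ratio of summit to local background, the deposited −log10 p and −log10 q are within-library values (lowest −log10 q 2.00), the deposited score is a rescaled q-value left unused, and the authors' summit offset gave summit positions.

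Summits of 1 interval counted as 1 peak with the values of its strongest summit by −log10 q. Peaks overlapping by 1 bp or more were joined into regions. From fold and −log10 p, the pileup (a whole number of fragments) and its local background were recovered, and 99.99% or more of the summits of each library came back to their deposited −log10 p with a tolerance of 0.001. The recovery was tested on simulated data. The lowest local background was taken as that of the genome. Libraries were compared by two-sided exact permutation (scipy 1.17.1). Intervals are Clopper-Pearson and cover counting error only. The gene table gives spans without strand or exons, so gene ends stood in for promoters. Distances run from the lower end of CCND1. Named were CCND1 and the other protein-coding genes of the window, the regions at CCND1, the 12 others of highest −log10 q percentile and all regions with an ACSS2i peak, which are 19 regions in all, and of the G1/S list the genes lost in ACSS2i and the 4 strongest in all libraries; the 9 regions without an ACSS2i peak and CDK4, CDK6, RB1, CCND2, CDKN1A and CDKN1C were named after their values were seen. Alternatives were a −log10 q of 5 or more, equal list length, each library left out, a replicate block, a window of 69.3 to 69.7 Mb, joining only at larger overlaps (50% of the shorter peak), the mean over regions and gene ends of 500 bp. The members and lists were chosen with earlier results of these data known.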

Additional observations from a re-analysis of the deposited data

How the results depend on the processing

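The number of window peaks was 9.5 lower in ACSS2i; without each library in turn it was 8.5 to 10.5 lower (as differences, -10.5 to -8.5), and it was 1.5 higher at equal list length (exact permutation p = 1.00). The mean share of the list stayed higher in ACSS2i in all settings tried, with differences of 0.00915 to 0.0310 percentage points. At equal list length the groups overlapped, with 0.0915% in each ACSS2i library and 0.0976% and 0.0671% in DMSO replicates 1 and 2. The relative summit height of the window, 0.08 higher in ACSS2i on the log2 scale, was 0.17 as a mean over regions and ranged from -0.13 to 0.19 when a library was left out, and was -0.05 without ACSS2i replicate 1 and -0.13 without ACSS2i replicate 2, where 15 and 14 regions shared by the 3 libraries left enter in place of 12. At a −log10 q of 5 or more it was 0.27 over 8 regions, and at equal list length it was 0.18 over 8 regions. In these settings and in the mean over regions the groups did not overlap (exact permutation p = 0.333 each). With a library left out and the 12 regions kept (added after seeing the data) the difference stayed positive, 0.02 to 0.15, so the sign changed with the regions that enter. The count of regions without an ACSS2i peak, 4 of 21, was 6 to 7 with a library left out (7 of 21 without ACSS2i replicate 2, 7 of 26 without DMSO replicate 1, against 52.2% and 55.9% of all regions) and 0 of 9 at equal length. The count of regions in all libraries was 8 to 15. Of the G1/S genes, 3 to 8 lacked an ACSS2i peak with a library left out. The count was 8 of 20 without ACSS2i replicate 2 and 8 of 25 without DMSO replicate 1, against 38.1% and 28.5% of all genes. It was 3 of 20 without ACSS2i replicate 1 (22.8%) and 3 of 20 without DMSO replicate 2 (19.4%). At a −log10 q of 5 or more it was 3 of 18 (29.8%), and at equal length 0 of 13 (5.29%). With gene ends of 500 bp it was 5 of 20 (19.7%): CCND3, CCNE2, E2F4, E2F5 and FBXW8. Taking differences within replicate numbers (replicate block) left the peak count at -9.5, with an exact permutation p of 0.5, the smallest for 2 pairs; the numbers carry no stated meaning, and deviations of same-numbered libraries had a correlation of 0.134 over 13304 regions. For the covered length, -8.83 kb became -1.43 kb at equal length. The covered length and counts per region were added after seeing the data. With 2 libraries in a group no setting can pass 0.05.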
